A study of Mus musculus with 35 samples.

Results

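The genes described here are 10 semaphorins, semaphorin receptors and co-receptors measured in tdTomato-positive microglia sorted from 3 brain regions of adult mice. They are the semaphorins Sema6d, Sema4a, Sema4b, Sema4d and Sema7a, the plexins Plxna1, Plxnb2 and Plxnc1, and the neuropilins Nrp1 and Nrp2. They were taken by symbol from the 21236 genes of the deposited count table, and all 10 were in it. The set was chosen by its levels across the brain regions, as CPM (read counts scaled to the size of the library), with Sema6d already known as one of the larger differences between prefrontal cortex (PFC) and midbrain in earlier results of these data. The regional values of these genes are therefore given as a description, and the count of members called between regions stands only beside the share of all genes called. Sex played no part in that choice, and the sexes were tested.

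Every mouse, in every group, carried the Tmem119-2A-CreERT2/ Ai14(RCL-tdTomato)-D genotype and received Tamoxifen, so the Cre recombinase expressed from the microglial gene Tmem119 switched on the red reporter by which the cells were sorted. No group without the reporter or the drug was analysed here. The groups were 12 midbrain samples (6 male and 6 female mice), 12 striatum samples (6 male and 6 female mice) and 11 PFC samples (5 male and 6 female mice), 35 samples from 12 mice. The number in a sample's title named the mouse, so samples with the same number came from the same animal. The table held 37680501 to 54131421 counts per sample, which puts 3 counts, the floor used below, at 0.0561 to 0.0789 CPM. A column headed as PFC of mouse 3 carried the library number of the sample labelled striatum of mouse 3. It was used as striatum. The study states that a PFC sample was lost in tissue dissociation, which left 5 male PFC samples, the number here under that labelling. The striatal differences of Sema6d, Sema4b and Plxnb2, the sex difference of Sema6d and the counts of members called are also given without this sample.

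Semaphorins are secreted or membrane-bound guidance proteins that steer axons, vessels and immune cells, and plexins are the receptors that carry their signal into the cell. The cytoplasmic part of a plexin acts on small GTPases of the Ras and Rap family, and so changes adhesion and the actin skeleton. Neuropilins have short cytoplasmic tails and act mainly as co-receptors, for class 3 semaphorins and for vascular endothelial growth factor. Semaphorins of classes 4 and 6 are membrane proteins, and Sema7a is attached to the membrane by a lipid anchor. In myeloid cells Sema6d can bind a complex of plexin-A1 with the microglial receptor Trem2 and its adaptor Tyrobp, and Sema4d can bind Cd72 on immune cells as well as plexin-B receptors.

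The identity of the sorted cells was read from marker lists. Microglial markers, 9 genes that include Tmem119, P2ry12 and Csf1r, summed to 27390 to 37890 CPM per sample. The 8 astrocyte markers summed to 207.7 to 493.8 CPM and the 8 oligodendrocyte markers to 231.1 to 848.1 CPM. The 10 neuronal markers summed to 3.998 to 31.53 CPM, the 8 endothelial markers to 9.188 to 80.77 CPM and the 4 pericyte markers to 0.0 to 9.623 CPM. The 3 markers of oligodendrocyte precursors summed to 0.58 to 17.12 CPM, the 5 of monocytes and neutrophils to 0.8132 to 25.11 CPM and the 6 of border macrophages found in the table to 2.132 to 123.4 CPM. No listed marker was at 0 in every sample of a region. In bulk samples fewer cells of a type and less RNA per cell cannot be told apart.

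Promoter sequence is shown for Sema6d and Sema4b, the member whose log2 CPM was most like that of Sema6d over the 35 samples. Each window runs from 250 bases before a RefSeq transcript start to 50 bases after it (RefSeq, GRCm38.p6, plus strand, 5′ to 3′). Capitals mark GGAAGT or its reverse complement ACTTCC, the core to which the myeloid factor PU.1 and other ETS factors bind. The windows lie at chr2:124089719-124090018 and chr2:124653331-124653630 for Sema6d and at chr7:80186620-80186919 and chr7:80198338-80198637 for Sema4b.
Sema6d, upstream start: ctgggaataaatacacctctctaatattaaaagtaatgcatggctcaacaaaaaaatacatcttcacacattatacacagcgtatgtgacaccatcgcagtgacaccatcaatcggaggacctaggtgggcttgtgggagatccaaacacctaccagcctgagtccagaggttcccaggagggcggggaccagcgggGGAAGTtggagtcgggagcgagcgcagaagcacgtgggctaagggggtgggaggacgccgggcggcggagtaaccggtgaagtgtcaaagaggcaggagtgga
Sema6d, downstream start: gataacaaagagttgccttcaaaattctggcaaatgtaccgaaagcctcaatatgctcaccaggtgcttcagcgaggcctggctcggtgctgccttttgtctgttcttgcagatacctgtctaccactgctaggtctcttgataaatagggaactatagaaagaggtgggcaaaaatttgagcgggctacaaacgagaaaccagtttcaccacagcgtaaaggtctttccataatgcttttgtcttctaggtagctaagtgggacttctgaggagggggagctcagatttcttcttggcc
Sema4b, upstream start: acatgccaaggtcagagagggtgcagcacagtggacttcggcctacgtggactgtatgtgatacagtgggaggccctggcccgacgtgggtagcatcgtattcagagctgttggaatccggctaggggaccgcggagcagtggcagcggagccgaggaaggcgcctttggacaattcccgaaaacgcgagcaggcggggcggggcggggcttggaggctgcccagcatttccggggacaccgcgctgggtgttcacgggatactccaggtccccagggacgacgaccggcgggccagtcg
Sema4b, downstream start: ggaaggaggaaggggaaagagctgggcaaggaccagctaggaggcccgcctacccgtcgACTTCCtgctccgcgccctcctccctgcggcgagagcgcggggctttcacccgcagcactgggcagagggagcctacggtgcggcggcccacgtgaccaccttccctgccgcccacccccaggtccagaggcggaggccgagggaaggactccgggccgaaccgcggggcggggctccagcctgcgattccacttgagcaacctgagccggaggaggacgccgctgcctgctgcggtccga

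The starts of Sema6d lie 563612 bases apart, and the counts are sums over a gene, so they do not show which start was used. The upstream Sema6d window held 1 match to GGAAGT, on the plus strand, and the downstream Sema4b window held 1 on the minus strand, while the other window of each gene held 0. On either strand, this motif occurs in 23.8% of all 32851 promoter windows. The GC box GGGCGG was found 2 times in the upstream Sema6d window and 2 times in each Sema4b window, overlapping matches counted, against at least 1 match in 35.7% of windows. The TATA box letters TATAAA (13.6% of windows) were not found in any of the 4 windows on either strand. The downstream Sema6d window held 6 CG dinucleotides and 46.7% GC, and the upstream one 14 and 54.3%. The Sema4b windows were richer in GC, with 65.3% and 71.7%, against a median of 52.7% over all windows. Windows were found for 9 of the 10 members, Plxna1 being the exception.

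The members spanned a wide range of abundance. Levels of different genes were compared as CPM per kilobase of exon, using the union of annotated exons, which understates a gene whose microglia use a short isoform. Sema4d was highest, with a mean of 32.9 CPM per kb over 35 samples and a range of 23.3 to 43.1. Plxnb2, a receptor for class 4 semaphorins, came next with 29.6 (16.7 to 44.2), and its range overlapped that of Sema4d. Nrp1 had 16.4 CPM per kb (13.1 to 20.4), lower than every Sema4d sample and overlapping Plxnb2. Every Nrp1 sample lay above every sample of the genes that followed. These were Sema4b (3.72), Nrp2 (1.54), Sema4a (1.09), Sema6d (0.856) and Plxna1 (0.301), whose ranges overlapped from 1 neighbour to the next. Plxnc1, the plexin that binds Sema7a, had 0.0481 CPM per kb and was at 0 counts in 1 sample.

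**Figure D1:**
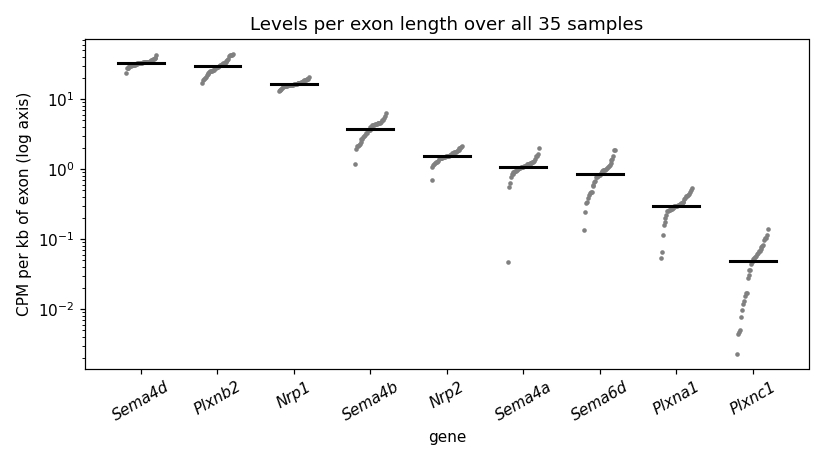
Levels of 9 members as TMM-normalized CPM per kb of exon (log axis), with 1 point per sample (35 samples, 1 Plxnc1 sample at 0 left out) and a bar at the mean of all samples. Sema4d, Plxnb2 and Nrp1 lie above 13 CPM per kb in every sample, and Plxnc1 is lowest at a mean of 0.0481.

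Sema7a was close to undetected. It had 1 count in all 12 midbrain samples together, 17 counts in the 12 striatum samples and 13 in the 11 PFC samples. More than 3 counts were found in 2 striatum samples, 2 PFC samples and 0 midbrain samples, and 24 of 35 samples had 0. No fold change is given for it, and the single call it received between striatum and midbrain rests on these counts. With such values the table does not show whether these microglia express Sema7a.

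Sema6d was lowest in midbrain and highest in PFC. Its gene lies at chr2:124089969-124667770 on the plus strand (GRCm38, ENSMUSG00000027200), where annotated noncoding RNAs 4930517E11Rik and 4930583P06Rik overlap it on the other strand. The library kit is not described as strand-specific, so reads of the overlapping RNAs cannot be told apart from those of Sema6d. In midbrain its level ran from 1.444 to 9.347 CPM with a median of 4.601 and a mean of 5.21 ± 2.56 (SD, n = 12). In striatum it ran from 5.023 to 19.8 CPM with a median of 9.047 and a mean of 9.58 ± 3.92 (n = 12). In PFC it ran from 8.144 to 20.07 CPM with a median of 11.69 and a mean of 12.6 ± 3.45 (n = 11). The ranges of neighbouring regions overlapped, and 10 of 11 PFC samples lay above every midbrain sample.

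The same order was seen within animals. Sema6d was higher in PFC than in midbrain in 11 of 11 mice, higher in striatum than in midbrain in 11 of 12 mice and lower in striatum than in PFC in 11 of 11 mice. The exception between striatum and midbrain was mouse 7, with 8.363 CPM in midbrain and 5.023 in striatum. In the fit over all samples with region and sex as terms, the log2 difference from midbrain was 1.25 ± 0.19 (SE) in PFC and 0.88 ± 0.19 in striatum, and striatum minus PFC was −0.38 ± 0.19. The marker sum of neurons followed the same order (6.4, 11.58 and 17.26 CPM in midbrain, striatum and PFC). An index of other brain cell markers pooled oligodendrocytes, their precursors, astrocytes, neurons, endothelial cells and pericytes. On average it was highest in striatum, so it did not follow the neuronal order. With this index as a covariate, the log2 differences of Sema6d from midbrain were 1.25 in PFC and 0.84 in striatum. An adjustment for neuronal markers alone was not tested. Without the striatum sample of mouse 3 striatum exceeded midbrain by 0.80 and striatum minus PFC was −0.45.

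**Figure D2:**
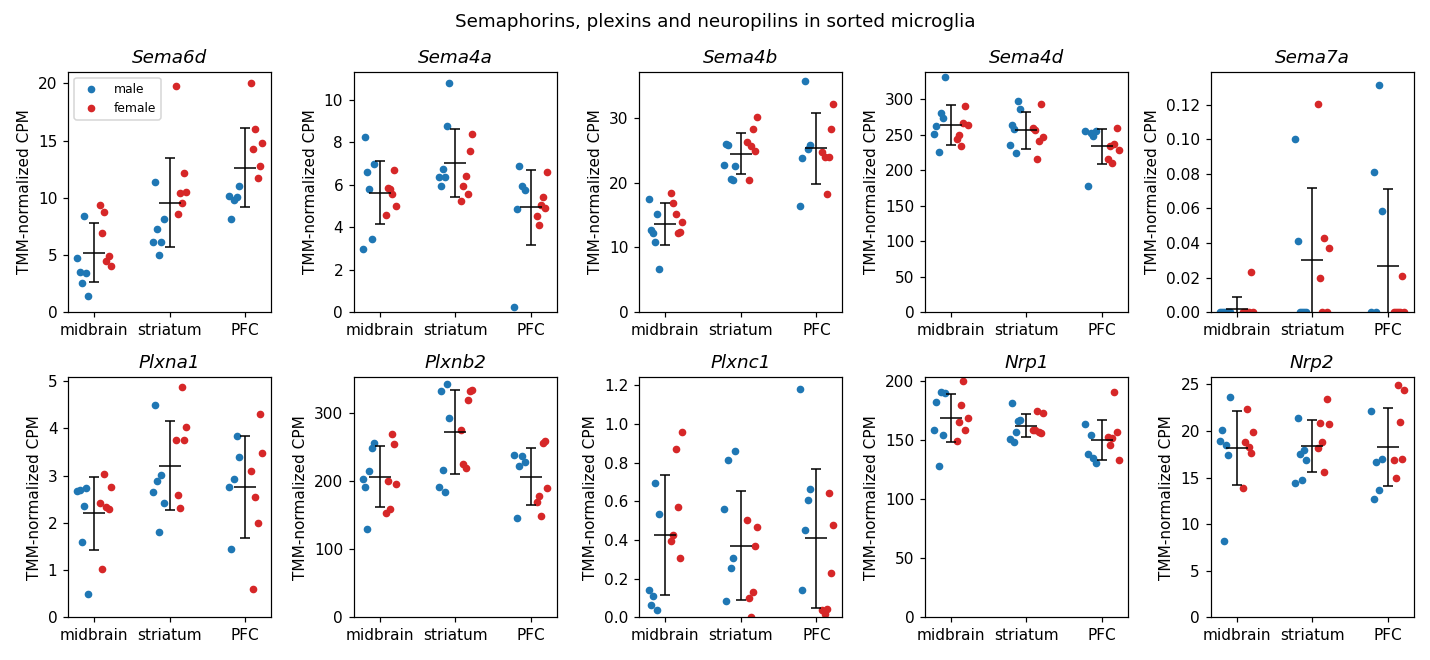
TMM-normalized CPM of the 10 members by region in males (blue) and females (red), 1 point per sample, with the mean and SD of each region in black (n = 12, 12 and 11). Sema6d and Sema4b are lowest in midbrain, while Nrp2 has a mean of 18.1 to 18.4 CPM in every region. Sema7a values stand for at most 5 counts.

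Among the class 4 semaphorins of the set, Sema4b showed the widest gap between midbrain and the other regions. Its gene lies at chr7:80186841-80226527 on the plus strand. Its level ran from 6.664 to 18.34 CPM in midbrain (median 13.31), from 20.43 to 30.06 in striatum (25.26) and from 16.43 to 35.65 in PFC (24.69). Every striatum sample lay above every midbrain sample, and 9 of 11 PFC samples did. The share of all genes with ranges apart in this way was not counted, and the set was chosen by regional levels. Its log2 difference from midbrain was 0.84 ± 0.12 in striatum and 0.89 ± 0.12 in PFC, and striatum minus PFC was −0.05 ± 0.12. Without the striatum sample of mouse 3 the difference between striatum and midbrain was 0.83. The astrocyte marker sum was also lowest in midbrain (means of 237.5, 352.3 and 345.6 CPM in midbrain, striatum and PFC). That of oligodendrocytes was lowest in PFC (400.0, 481.2 and 336.2 CPM). An adjustment of Sema4b for astrocyte markers alone was not tested. Within mice, Sema4b was higher in striatum than in midbrain in 12 of 12 and higher in PFC than in midbrain in 10 of 11. Its log2 difference between PFC and midbrain was 0.46 among mice 1 to 6 and 1.27 among mice 7 to 12, and whether these differ was not tested.

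Sema4d, which is shed from immune cells and signals through plexin-B receptors, was the most abundant member and varied little. Its level ran from 226.3 to 331.3 CPM in midbrain (median 263.1), from 215.8 to 298.4 in striatum (258.1) and from 178.6 to 259.3 in PFC (236.6). It was lower in PFC than in midbrain in 10 of 11 mice, with a log2 difference of −0.17 ± 0.06, and the ranges overlapped. Sema4a, a membrane semaphorin of antigen-presenting cells, had means of 5.62 ± 1.49, 7.01 ± 1.60 and 4.94 ± 1.76 CPM in midbrain, striatum and PFC. It was higher in striatum than in PFC in 10 of 11 mice, with a log2 difference of 0.50 ± 0.23. The PFC sample of mouse 1 had 0.2578 CPM of Sema4a, while the other PFC samples had 4.126 to 6.868.

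Among the plexins, Plxnb2 was highest in striatum, with a range of 183.0 to 341.3 CPM (median 283.3), against 128.9 to 269.3 in midbrain (201.1) and 145.1 to 258.8 in PFC (221.1). On the log2 scale striatum exceeded midbrain by 0.40 ± 0.13 and PFC by 0.40 ± 0.13, while PFC minus midbrain was 0.00 ± 0.13. It was higher in striatum than in midbrain in 10 of 12 mice and than in PFC in 9 of 11, and the ranges overlapped. The sums of oligodendrocyte and endothelial markers were also highest in striatum (means of 481.2 and 43.43 CPM), and with the marker index as covariate the log2 difference of Plxnb2 from midbrain was 0.28. Without the striatum sample of mouse 3 striatum exceeded midbrain by 0.37 and PFC by 0.37. Plxna1, the receptor named above for Sema6d, was low, at 2.202 ± 0.771, 3.21 ± 0.95 and 2.76 ± 1.08 CPM in midbrain, striatum and PFC. Plxnc1 had means of 0.425, 0.370 and 0.408 CPM, with an SD of 0.281 to 0.359 within a region.

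The neuropilins hardly varied by region. Nrp1 ran from 128.0 to 199.9 CPM in midbrain (median 167.3), from 148.9 to 181.6 in striatum (158.5) and from 130.6 to 190.6 in PFC (151.9). Its log2 difference between PFC and midbrain was −0.17 ± 0.06, and it was lower in PFC in 8 of 11 mice. Nrp2 had means of 18.1 ± 3.98, 18.4 ± 2.81 and 18.3 ± 4.19 CPM, and its log2 differences between regions were at most 0.015 in size, each ± 0.12. Antisense transcripts are annotated over Nrp2 (Gm29083) and Plxna1 (Gm26811), so their counts share the limit on strand given for Sema6d.

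Set beside all genes, calls were made at an adjusted p under 0.05 (edgeR quasi-likelihood, Benjamini-Hochberg over 21236 genes), and for these regional counts nothing is read from the comparison. An effect of region was called for 3 of 10 members (Sema6d, Sema4b and Plxnb2) and for 8.89% of all genes. Between PFC and midbrain 2 members were called, both higher in PFC, against 6.52% of genes. Between striatum and midbrain 4 were called, all higher in striatum and Sema7a among them, against 7.45%. Without the striatum sample of mouse 3 that count was 2, Sema6d and Sema4b, against 7.3% of genes. It was also 2 without mouse 2, 3, 4, 6, 9, 11 or 12, against 5.19% to 6.93%. The effect of region on Plxnb2 was not called without that sample or without mouse 2, 3, 4, 6, 9, 10, 11 or 12. Between striatum and PFC edgeR called 0, with 3 at an unadjusted p under 0.05, against 0.57% of genes called. DESeq2 and limma voom called 0, while with the mouse as a block 1 was called, Plxnb2, against 2.89% of genes. The block also called Sema4d for region and for PFC against midbrain. Over the 9 members other than Sema7a the median log2 difference was 0.00044 for PFC minus midbrain, 0.316 for striatum minus midbrain and 0.115 for striatum minus PFC, against 0.011, 0.0125 and 0.00811 over all genes.

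**Figure D3:**
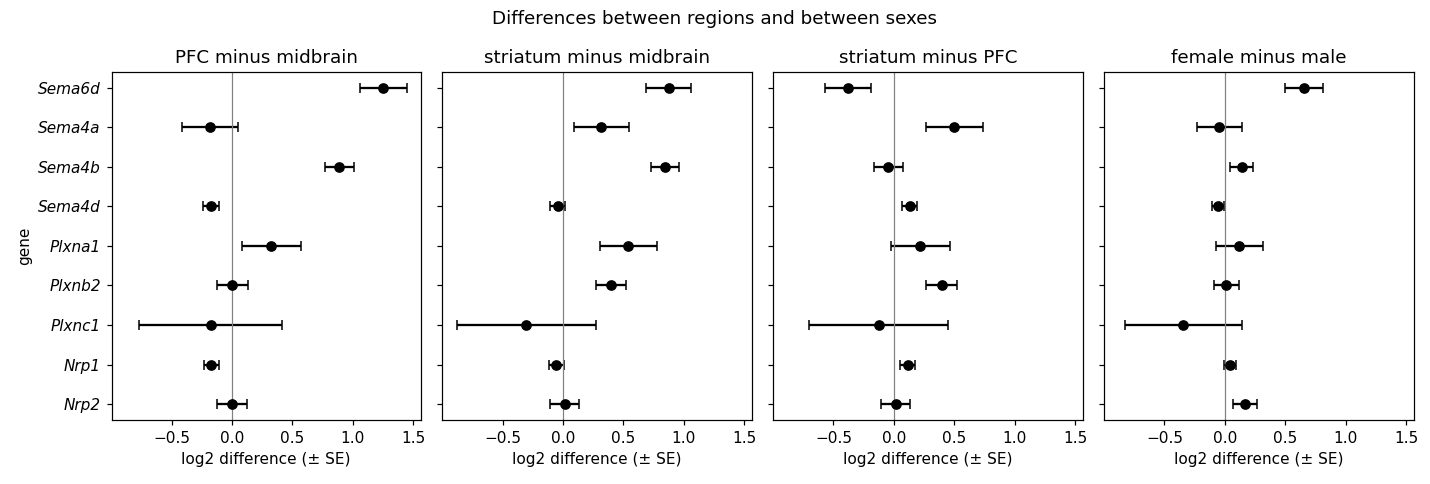
Log2 differences of 9 members (Sema7a left out for lack of counts) between regions and between sexes, as the estimate ± SE of the fit over 35 samples. Sema6d and Sema4b lie to the right in both contrasts with midbrain, and Sema6d alone lies beyond 0.5 in the contrast of the sexes.

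Sex was not used to choose the genes. Sema6d was higher in females, in all 3 regions. In PFC the 5 male samples had 8.144, 9.77, 10.08, 10.16 and 11 CPM and the 6 female samples 11.69 to 20.07 (median 14.54), so the sexes did not overlap. The share of all genes whose sexes were apart in PFC was not counted. The test of sex within PFC gave an adjusted p of 0.783 (edgeR quasi-likelihood). In striatum males had 5.023 to 11.4 CPM (median 6.70) and females 8.581 to 19.8 (10.43). They overlapped only through the sample of mouse 3 whose label and column disagree, at 11.4 CPM. In midbrain males had 1.444 to 8.363 CPM (median 3.484) and females 4.045 to 9.347 (5.928), and the ranges overlapped.

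In the fit over 35 samples the log2 difference of Sema6d between females and males was 0.66 ± 0.15, a fold of 1.575, with an adjusted p of 0.0439 (edgeR quasi-likelihood). Sema6d was the only member called, 1 of 10, while 0.339% of all genes were called for sex and 0.146% were called as higher in females. Samples of a mouse are not independent for sex, which that p does not allow for. With counts summed per mouse the log2 difference was 0.67 and the adjusted p 0.449, and with mouse as a random effect (limma voom) 0.64 and 0.156. The difference between mice 1 to 6 was 0.90 and between mice 7 to 12 it was 0.37, neither past the threshold (adjusted p of 0.225 and 0.764 in edgeR). Leaving out 1 mouse at a time gave log2 differences of 0.506 to 0.741, with adjusted p from 0.0108 to 0.206 in edgeR, and the call was kept in 3 of 12 fits (without mouse 3, 7 or 8). Without the striatum sample of mouse 3 alone it was 0.71, with an adjusted p of 0.0277 (edgeR).

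Each mouse was then given 1 value, the mean of its log2 CPM after removal of the region means. These values ran from −0.646 to −0.0184 in the 6 males and from −0.0107 to 0.955 in the 6 females, so that the sexes were apart by a narrow margin. A two-sided exact permutation test over the 12 mice gave p = 0.00216, the smallest that 6 against 6 allows, chosen after the sex call was seen and not adjusted for the other genes. Without the striatum sample of mouse 3 the mouse values ran to −0.0893 in males and from −0.000299 in females, and the exact permutation p was again 0.00216. Mouse values of the sexes were apart, in either direction, in 0.24% of all genes, 51 of 21236. A share near that is expected without any effect of sex, since such a gene has an exact permutation p of 0.00216. By region the log2 differences between females and males were 0.67 ± 0.27 in midbrain, 0.69 ± 0.27 in striatum (0.86 without the striatum sample of mouse 3) and 0.60 ± 0.28 in PFC, and the test of a sex by region interaction gave an adjusted p of 1.0 (edgeR).

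**Figure D4:**
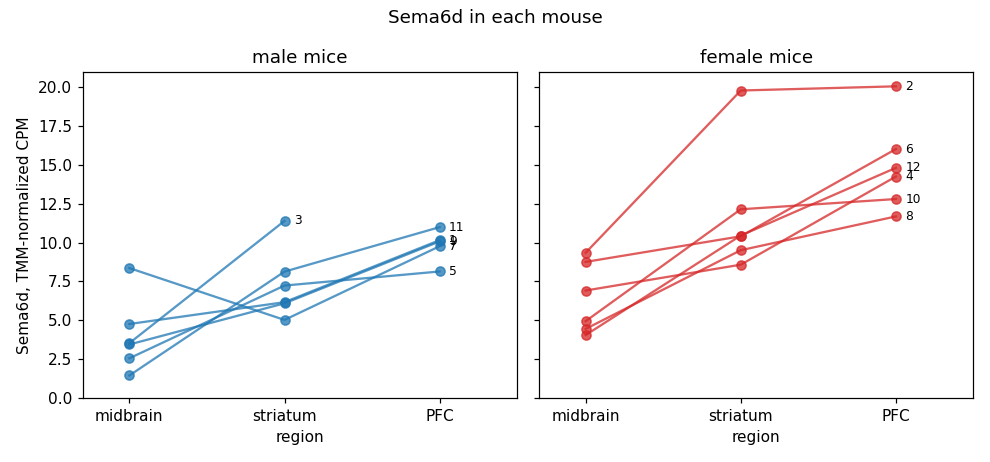
Sema6d in each mouse (TMM-normalized CPM) across midbrain, striatum and PFC, males left and females right, with lines joining samples of a mouse and numbers naming it. PFC is above midbrain in 11 of 11 mice, and mouse 7 alone falls from midbrain to striatum. Mouse 3 has no PFC sample.

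No other member was called for sex. Their log2 differences between females and males were 0.17 ± 0.10 for Nrp2, 0.14 ± 0.10 for Sema4b, 0.12 ± 0.20 for Plxna1 and between −0.06 and 0.04 for Sema4a, Sema4d, Plxnb2 and Nrp1. Plxnc1 had −0.34 ± 0.49 at its low counts, and Sema7a is left out for want of counts. A sex by region interaction was called by edgeR for 0 of 10 members and 0.0% of all genes, with 1 member and 632 of 21236 genes at an unadjusted p under 0.05. DESeq2 and limma voom also called 0 members, each against 0.00471% of genes.

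The genes whose log2 CPM most resembled that of Sema6d over the 35 samples were ranked among 12296 genes with a mean of at least 1 CPM, as a description. Sema4b ranked first by Pearson r (0.759, n = 35 samples that share region and mouse) and 12th by Spearman rho (0.708). The next were Slc40a1 (0.757), the iron exporter ferroportin, Fbxl16 (0.756), Fcrls (0.748), a microglial Fc receptor-like gene, and Nrsn1 (0.742). Fbxl16 and Nrsn1 were low, with means of 2.816 and 3.579 CPM. The means of all 5 genes rose from midbrain over striatum to PFC, the order of the neuronal marker sum, and a part of neuronal RNA was not tested. The lowest were AU020206 (−0.846), Tnfsf13b (−0.832), a B cell survival factor, Pdcd1 (−0.811), the checkpoint receptor PD-1, Rfc2 (−0.793) and Klhl6 (−0.779). After removal of the mean of each region and sex, r with Sema4b was 0.418, rank 139, and Fbxl16 was the only gene of the first 5 left among the highest 5. Of the other members Plxna1 had r 0.443, Nrp2 0.198 and Plxnb2 0.0774, while Sema4d had −0.395.

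**Figure D5:**
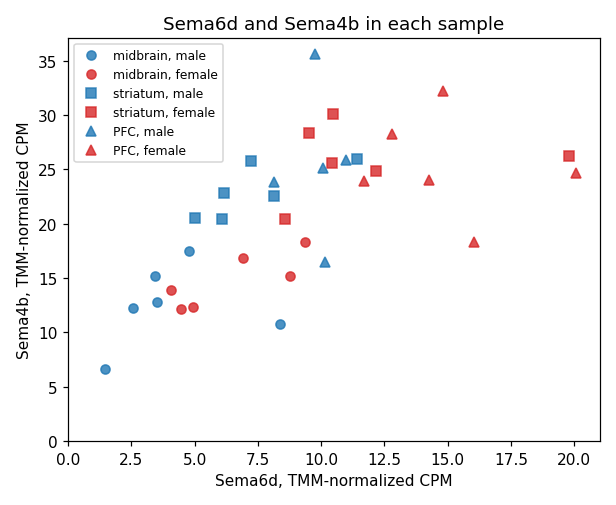
Sema6d against Sema4b in each of 35 samples (TMM-normalized CPM), with the marker giving the region and the colour the sex. Midbrain samples tend to lie low on both axes, with at most 18.34 CPM of Sema4b and 9.347 of Sema6d. Every striatum sample lies above every midbrain sample for Sema4b, while the other ranges overlap with midbrain. The share of all genes so separated was not counted.

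Other semaphorins and plexins were counted from a list of the remaining family genes, of which 18 of 21 were in the table and 5 reached a mean of 1 CPM. The most abundant of them were Plxna4 (61.3 CPM), Sema4c (12.4) and Plxnb3 (12.2). In the fit with region and sex, edgeR called an effect of region for 0 of 18, with 5 at an unadjusted p under 0.05, DESeq2 called 0 and limma voom, fitted with a random mouse term, called 4. With the mouse as a block 4 did, Plxna2, Plxna4, Sema3f and Sema4c, beside 2977 of 21236 genes in that fit. Of these Plxna4 had a log2 difference between striatum and midbrain of 0.28 ± 0.07 (adjusted p = 0.00874, edgeR with the block) and Sema4c 0.45 ± 0.12 (adjusted p = 0.0151). Plxna2 and Sema3f had means of 0.0764 and 0.276 CPM. Between striatum and midbrain edgeR called 1 of 18 in the fit with region and sex, Sema4c, against 7.45% of all genes. DESeq2 called 2, against 10.7%, and limma voom 5, against 11.9%. The block called 5, the 4 named for region with the block and Sema6a, all higher in striatum, against 11.7% of all genes. Sex was called for 0 of 18 genes by edgeR, DESeq2 and limma voom, against 0.339%, 1.3% and 0.108% of all genes. In edgeR 2 had an unadjusted p under 0.05.

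Of surface partners such as co-receptors and alternative receptors, 14 of 17 were in the table. Trem2 and Tyrobp, the partners of plexin-A1 named above, were abundant at 1533 and 1913 CPM. Their region tests gave adjusted p of 0.467 and 0.905 (edgeR), with log2 differences between PFC and midbrain of −0.06 ± 0.06 and −0.07 ± 0.10. Effects of region were called for 2 of 14, against 8.89% of all genes. These were Cd72, the B cell and myeloid receptor for Sema4d, and Ptprc, which encodes the phosphatase CD45. Cd72 had 45.1 ± 8.61 CPM in midbrain, 34.7 ± 5.28 in striatum and 27.8 ± 9.30 in PFC, and fell by 0.70 on the log2 scale from midbrain to PFC (SE 0.14, adjusted p = 0.00114, edgeR). Ptprc was lower than in midbrain, with log2 differences of −0.36 ± 0.09 in PFC and −0.37 ± 0.09 in striatum (adjusted p = 0.0106 and 0.00764, edgeR). With the mouse as a block 3 of 14 were called for region, the third being Flt1, a receptor for vascular endothelial growth factor with a mean of 1.32 CPM (adjusted p = 0.0183, edgeR). That fit also called Cd72 as lower in striatum than in midbrain (−0.38 ± 0.10, adjusted p = 0.0156) and Kdr, another receptor for that factor, as higher in PFC than in midbrain (0.55 ± 0.17, adjusted p = 0.0453).

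Among 38 intracellular effectors of plexins, 6 had a called effect of region, against 8.89% of all genes. With the mouse as a block 9 did, Fes, Dpysl3 and Mras in addition, beside 2977 of 21236 genes. The kinase Abl1 was higher than in midbrain in striatum (0.48 ± 0.09, adjusted p = 0.000337, edgeR) and in PFC (0.33 ± 0.09, adjusted p = 0.0170). Sh3bp1, a GTPase-activating protein for Rac, was higher in striatum by 0.49 ± 0.12 (adjusted p = 0.0105, edgeR), and Gipc1, an adaptor that binds the neuropilin tail, by 0.19 ± 0.05 (adjusted p = 0.0193). Plexins act on GTPases of the Ras and Rap family through their GTPase-activating domain. Rras2 was lower in PFC than in midbrain (−0.48 ± 0.11, adjusted p = 0.00445, edgeR) and Rap1b in striatum (−0.19 ± 0.06, adjusted p = 0.0372), while Rap1a had an effect of region (adjusted p = 0.0460) with no contrast called. With the block Rap1a was called as lower than in midbrain, with log2 differences of −0.17 ± 0.04 in PFC (adjusted p = 0.0144, edgeR; 11 of 11 mice) and −0.17 ± 0.04 in striatum (adjusted p = 0.00782; 11 of 12 mice). Mras went the other way in that fit, higher than in midbrain by 0.21 ± 0.06 in PFC (adjusted p = 0.0379, edgeR) and 0.24 ± 0.06 in striatum (adjusted p = 0.0111), and Rras had no called effect of region (adjusted p = 0.637). With the marker index as a covariate 2 of the 6 stayed called, Abl1 and Rras2, while 6.38% of all genes were called in that fit. Mras, another GTPase of this family, was higher in females by 0.46 ± 0.07 (adjusted p = 5.33e-05, edgeR), with 0.45 and an adjusted p of 0.226 when counts were summed per mouse and 0.000969 with mouse as a random effect in limma.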

How the data were processed

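Per the labels and the study's methods, full-length cDNA was made from the sorted cells, sequenced paired-end, trimmed with Trimmomatic and aligned to GRCm38 with HISAT2. The authors deposited whole-number read counts per Ensembl gene, filtered for low values. The counter was not given in the sources used here. The stated filter of at least 1 CPM in a subgroup is not what the table shows: 12857 of 21236 genes had a mean of at least 1 CPM in a group of region and sex, and the lowest total of a gene was 15 counts. Symbols and positions came from a GENCODE annotation of GRCm38, and promoters from RefSeq.

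One listed marker is not reported here. Counts were scaled by TMM (factors 0.961 to 1.05) and fitted with edgeR 4.0.16 in R 4.3.3 (quasi-likelihood, robust) with region and sex over all 35 samples. Log2 CPM used a prior count of 2. DESeq2 1.42.0, limma 3.58.1 and other settings were alternatives. Exact permutation used scipy. Libraries of a mouse are paired by animal: deviations from group means correlated at a mean of 0.347 in the 34 pairs of 1 mouse and −0.0675 in 170 pairs of different mice of a sex. The floor of 3 counts covers counting error only, and each SE is that of the fit.

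The members and lists were chosen with earlier results of these data known. Genes named are the members, list genes called for region or sex, Trem2 and Tyrobp, and the 5 most and 5 least like Sema6d. List genes called only with the mouse as a block, and Rras, were named after their values were seen.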

Additional observations from a re-analysis of the deposited data

Results flagged for a closer look

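In 60 groups of a gene by region and sex, 7 values stood apart from their group by a gap test at the 95% level, and chance flags about 5% of groups. Some samples were flagged for more than 1 gene. That share does not hold for Sema7a, whose flagged values rest on at most 5 counts. The striatum sample of female mouse 2 had 19.8 CPM of Sema6d, against 8.581 to 12.15 in the other female striatum samples, and it also had the highest Sema7a of its group (0.1203 CPM). The PFC sample of male mouse 5 was lowest for both Sema4d (178.6 CPM, others 247.8 to 255.7) and Plxnb2 (145.1 CPM, others 221.1 to 237.7). The midbrain sample of female mouse 4 had 1.028 CPM of Plxna1, against 2.295 to 3.043. For Sema7a, the midbrain and PFC samples of female mouse 10 had 0.02342 and 0.02087 CPM, which is 1 count each, while the other females of those regions had 0.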

How the results depend on the processing

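The log2 differences of Sema6d and Sema4b between midbrain and the other regions kept their direction under each alternative run, and no member that was called in either fit changed sign. Between PFC and midbrain, 1 member was called in mice 1 to 6 only (Sema6d), against 1.82% of all genes in that fit. Between striatum and midbrain, 1 was called among mice 1 to 6 and 1 among mice 7 to 12 (Sema4b each time). The shares of all genes there were 1.02% and 5.69%. With the marker covariate 2 were called, against 3.5%, and without the striatum sample of mouse 3 also 2, against 7.3%. Between striatum and PFC, 1 was called with the replicate block, against 2.89% of genes, and 1 by the thresholds of the study (Plxnb2 each time). The share of all genes under those thresholds was not counted. For sex, 0 members were called among mice 1 to 6 (0.0235% of all genes) and among mice 7 to 12 (0.193%). The same held with counts summed per mouse (0.0424%) and with mouse as a random effect (0.108%). Other family genes with an effect of region numbered 4 with the replicate block and 4 with mouse as a random effect. Surface partners numbered 1 in mice 1 to 6, and effectors 2 in mice 1 to 6, 2 with the covariate and 10 with mouse as a random effect. The cause was not tested. Leaving out 1 mouse at a time gave 2 to 3 members with an effect of region, 2 to 3 between PFC and midbrain, 2 to 4 between striatum and midbrain, 0 to 1 for sex, 0 to 1 other family genes, 2 to 2 surface partners and 3 to 6 effectors. The block added Sema4d to the members with an effect of region (4 in all) and to those differing between PFC and midbrain. The first 5 genes most like Sema6d shared 3 genes with the list at a floor of 8 CPM, 1 with that by Spearman rho and 1 with that after removal of group means.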
